A study of Homo sapiens with 3 samples.

Results

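Glycosaminoglycan synthesis and sulfation were described through 47 human genes, chosen by symbol to cover the linker, chondroitin sulfate and heparan sulfate branches, sulfation and precursor supply. All 47 were among the 19215 genes of the deposited table, and all 47 had a fold change there. RNA sequencing measured their transcripts in C28/I2, an established line of human chondrocytes made immortal with large T antigen. The 3 samples were grown as spheroids, that is, as round cell aggregates, and kept for 48 h with 0.5% of the solvent DMSO. Flat monolayer cultures of the same line enter only as the other side of the fold changes in the authors' deposited table, and no source used here gives their treatment. Nothing in the labels says that the 3 spheroid samples came from separate cultures, so their spread, and the p-values that rest on it, may be technical.

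Glycosaminoglycans are long sugar chains built in the Golgi on serine residues of core proteins. A shared linker is made first, and the chain then becomes either chondroitin or dermatan sulfate, with galactosamine, or heparan sulfate, with glucosamine. Sulfotransferases and epimerases modify the growing chain and so set which growth factors and matrix proteins it binds. In cartilage, chondroitin sulfate chains on aggrecan hold the water that resists compression, and heparan sulfate on cell surface and pericellular proteins binds signalling molecules.

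Levels are FPKM, fragments per transcript length and library total, which is scaled to gene length and allows levels of different genes to be compared. The read totals behind them are unknown, so no counting interval is given. Summed FPKM were 571705, 581522 and 623496 in replicates 1, 2 and 3. Chondrocyte markers were mostly near 0: 2 of 17 reached 1 FPKM, SOX9 at 6.71 ± 0.0866 and COL11A2 at 2.11 ± 0.506 FPKM (SD, n = 3). COL2A1, the main cartilage collagen, stood at 0.03, 0.01 and 0.01 FPKM in replicates 1, 2 and 3, and CNMD, a cartilage glycoprotein, at 0 in the 3 libraries. Of 8 markers of immune, endothelial and epithelial cells, 1 reached 1 FPKM, CSF1R at 6.27 ± 0.395 FPKM (SD, n = 3), and the 8 summed to between 7.43 and 8.70 FPKM. Of 16 tested chondrocyte markers, 2 were called higher and 2 lower, beside 11.5% and 9.34% of all tested genes. COL9A1 (4.79) and SOX5 (4.52) were higher and ACAN (-2.16) and HAPLN1 (-1.63) lower on the log2 scale per the authors' deposited table. These were under 1 FPKM in spheroids, but ACAN was 4.46 times as high in monolayers. At the adjusted p alone 2 were higher and 5 lower, beside 26% and 24.5%. SOX9 (-0.62, adjusted p = 3.23e-07) and COL11A2 (-0.43, adjusted p = 0.0406) were among those lower per the authors' deposited table. Of the 8 other markers 1 was called higher, PECAM1 (4.68), also under 1 FPKM in spheroids, beside 11.5% of all tested genes. At the adjusted p alone 2 of the 8 were higher and none lower, beside 26% and 24.5%. The second was CSF1R (0.94, adjusted p = 7.22e-10) per the authors' deposited table. The part of these cells in the differences between cultures was not tested.

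Spheroids held more transcript of 8 of the 47 genes than monolayers and less of 1. The genes that rose were CHST15, HS6ST2, HS2ST1, SULF2, CHSY1, HS3ST1, DSE and HS3ST3B1, and the gene that fell was SLC26A2. A gene is called higher or lower here when the authors' DESeq2 comparison gave it an adjusted p under 0.05 and a log2 fold change of 1 or more in size. By that rule 11.5% of all 18467 tested genes were higher and 9.34% lower, against 17% and 2.13% of the 47. At an adjusted p under 0.05 with no minimum fold change, 22 members were higher and 10 lower, or 46.8% and 21.3%, beside 26% and 24.5% of all tested genes. With an adjusted p under 0.01, the 8 and the 1 remained called, beside 10.3% and 8.8% of all tested genes. With a minimum of 2 on the log2 scale, 2 members were higher and 0 lower, beside 5.05% and 3.06%, and among genes at 1 FPKM or more 6 were higher and 1 lower, beside 12.7% and 9.83%. The median log2 fold change was 0.25 over the 47 and 0.04 over all tested genes per the authors' deposited table. In bulk RNA, a change in the share of cells that make a transcript and a change in the amount per cell cannot be told apart.

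**Figure D1:**
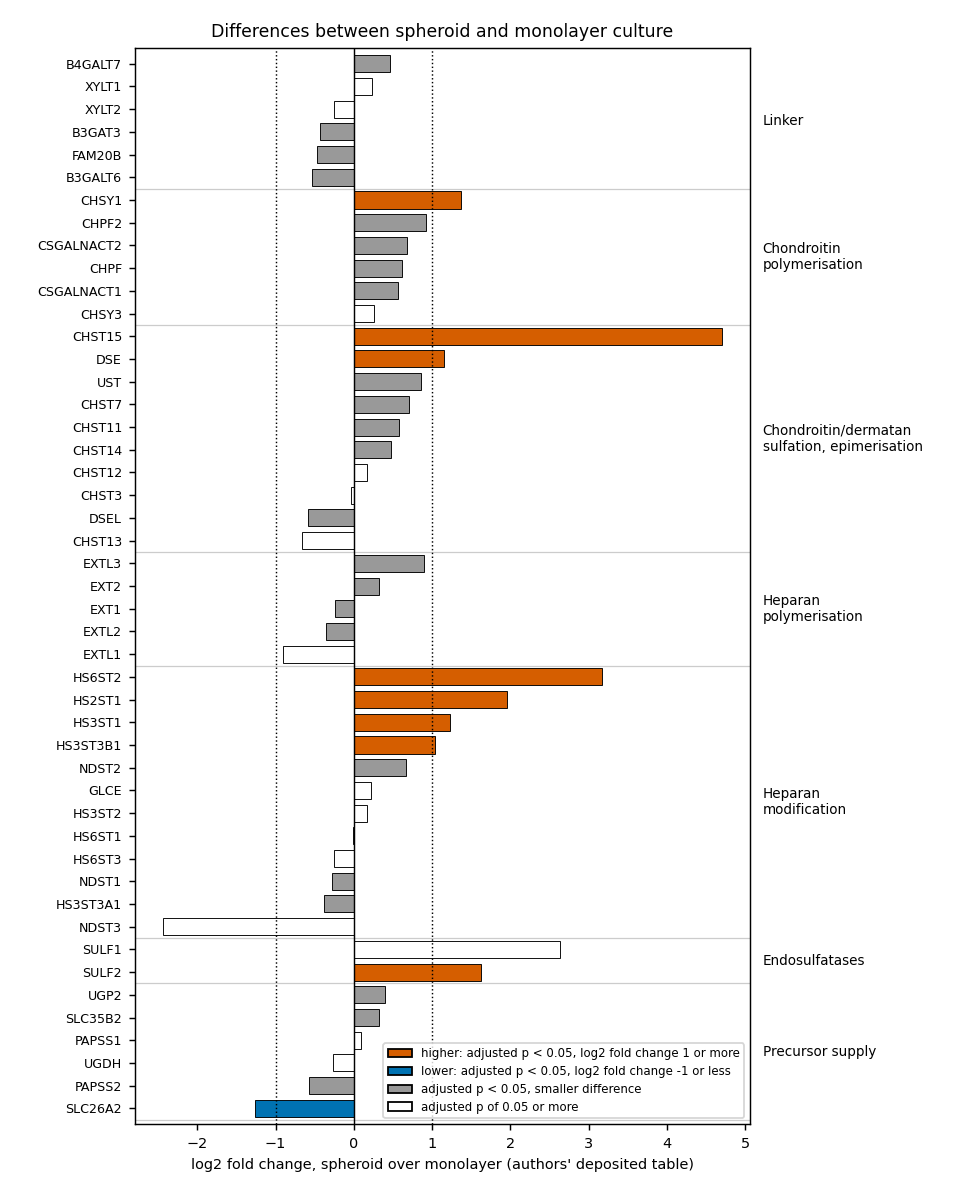
Log2 fold change of each of the 47 genes between spheroid and monolayer culture in the authors' deposited table (bars; positive means higher in spheroids), grouped by branch, with dotted lines at -1 and 1. The 8 orange bars lie in the chondroitin, heparan modification and endosulfatase groups, and the blue bar is SLC26A2 at -1.26.

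The promoters of the called genes with a single start in RefSeq are shown, since these are the genes that differed between the cultures, with HS3ST3A1 added as the near relative of HS3ST3B1 that did not pass the fold minimum. Each line gives the 250 bases before the annotated start, 5′ to 3′ on the gene's strand, from RefSeq on GRCh38.p14. Capitals mark ACGTG or GCGTG, the core that hypoxia-inducible factors recognise, on either strand.
CHST15, chr10:124093599-124093848, minus strand: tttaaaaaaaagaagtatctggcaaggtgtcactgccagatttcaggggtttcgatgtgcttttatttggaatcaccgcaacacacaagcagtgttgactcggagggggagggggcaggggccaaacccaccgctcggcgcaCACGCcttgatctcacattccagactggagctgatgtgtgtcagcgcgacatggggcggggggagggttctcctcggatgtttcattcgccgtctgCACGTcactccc
HS6ST2, chrX:132961371-132961620, minus strand: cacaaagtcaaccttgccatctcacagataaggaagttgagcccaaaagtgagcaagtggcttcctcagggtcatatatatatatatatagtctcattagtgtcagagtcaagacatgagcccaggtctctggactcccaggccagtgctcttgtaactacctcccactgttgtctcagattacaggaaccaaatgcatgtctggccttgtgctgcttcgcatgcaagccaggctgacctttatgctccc
HS2ST1, chr1:86914385-86914634, plus strand: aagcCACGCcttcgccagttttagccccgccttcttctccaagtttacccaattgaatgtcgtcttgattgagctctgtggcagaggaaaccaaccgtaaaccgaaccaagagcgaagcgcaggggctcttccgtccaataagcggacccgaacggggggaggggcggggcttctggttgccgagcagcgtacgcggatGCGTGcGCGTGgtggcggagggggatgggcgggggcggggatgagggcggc
CHSY1, chr15:101252049-101252298, minus strand: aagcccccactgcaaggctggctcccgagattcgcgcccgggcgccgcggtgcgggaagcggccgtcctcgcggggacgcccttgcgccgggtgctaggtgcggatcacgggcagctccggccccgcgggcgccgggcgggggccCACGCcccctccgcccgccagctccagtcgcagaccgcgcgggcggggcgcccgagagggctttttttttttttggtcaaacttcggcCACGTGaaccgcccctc
HS3ST1, chr4:11428895-11429144, minus strand: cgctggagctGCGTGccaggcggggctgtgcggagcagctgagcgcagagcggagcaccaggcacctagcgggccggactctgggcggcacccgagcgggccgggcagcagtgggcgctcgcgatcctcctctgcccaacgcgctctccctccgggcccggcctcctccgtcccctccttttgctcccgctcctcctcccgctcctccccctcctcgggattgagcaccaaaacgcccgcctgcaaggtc
HS3ST3B1, chr17:14300831-14301080, plus strand: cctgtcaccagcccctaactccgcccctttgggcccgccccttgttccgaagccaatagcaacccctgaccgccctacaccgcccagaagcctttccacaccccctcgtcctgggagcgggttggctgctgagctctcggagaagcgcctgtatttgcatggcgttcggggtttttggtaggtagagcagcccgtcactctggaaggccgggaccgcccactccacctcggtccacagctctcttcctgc
HS3ST3A1, chr17:13601930-13602179, minus strand: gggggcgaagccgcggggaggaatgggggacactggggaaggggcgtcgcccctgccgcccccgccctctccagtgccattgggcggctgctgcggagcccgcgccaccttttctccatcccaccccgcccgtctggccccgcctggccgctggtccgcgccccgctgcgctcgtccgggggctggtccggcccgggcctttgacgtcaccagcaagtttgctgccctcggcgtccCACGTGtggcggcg
SLC26A2, chr5:149960508-149960757, plus strand: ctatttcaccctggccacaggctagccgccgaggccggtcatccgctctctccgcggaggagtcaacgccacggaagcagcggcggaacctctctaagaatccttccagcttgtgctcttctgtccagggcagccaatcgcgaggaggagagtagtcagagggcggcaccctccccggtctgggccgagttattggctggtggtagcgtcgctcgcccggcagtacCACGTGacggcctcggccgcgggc
The core occurred in CHST15, HS2ST1, CHSY1, HS3ST1, HS3ST3A1 and SLC26A2, and not in HS6ST2 or HS3ST3B1. CACGTG reads as ACGTG on both strands, so the 2 overlapping matches in CHSY1, in HS3ST3A1 and in SLC26A2 come from 1 site each. That site began 17, 14 and 24 bases before the start, respectively. CHSY1 had a further match 105 bases before the start, CHST15 had matches at 108 and 12, HS2ST1 at 246, 51 and 45, and HS3ST1 at 240.

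RefSeq windows were found for 42 of the 47 members (all but CSGALNACT1, EXT1, EXTL3, PAPSS2 and SULF1), 58 windows in all since several genes have more than 1 start. The core was in 29 of the 58 (50.0%) and in 43.2% of all 35116 windows of that length. It was in 53.3% of the 15 windows of called members and in 48.8% of the 43 windows of the others. Counted by gene, where 1 window with the core is enough, it was in 7 of the 9 called members and 19 of the 33 others. By that count it was in 26 of the 42 members and in 12945 of all 27305 genes. These differences were not tested. The AP-1 sequence TGACTCA was in 2 of the 58 windows, 3.45% against 4.20% of all windows, and the TEAD sequence GGAATG in 8, or 13.8% against 11.9%, both read on either strand. Members' windows were richer in G and C, with a median of 68.2% against 58.0% and a median of 24 against 11 CG dinucleotides. These are matches of letters, not measured binding sites.

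All 6 linker genes were above 1 FPKM and 0 were called (at an unadjusted p under 0.05 in the authors' DESeq2 comparison, 2 were higher and 4 lower), beside 11.5% of all tested genes called higher and 9.34% lower. The order in spheroids ran from B3GAT3, which adds the closing glucuronic acid, at 60.3 ± 5.17 FPKM, to FAM20B, the kinase of the linker xylose, at 5.90 ± 0.102 FPKM (SD, n = 3). Between them lay B4GALT7 at 39.2 ± 0.762 and B3GALT6 at 22.6 ± 1.56 FPKM (SD, n = 3), the transferases of the first and second galactose. The ranges of neighbouring genes in this order did not overlap over the 3 libraries, except for XYLT1 and FAM20B. XYLT2 and XYLT1 both attach the xylose that starts every chain, and XYLT2 was the more abundant, 5.69 ± 0.548 times XYLT1 (SD over 3 libraries). XYLT2 was at 36.2, 36.5 and 35.7 FPKM and XYLT1 at 6.75, 6.78 and 5.65 FPKM in replicates 1, 2 and 3. In the authors' deposited table, the log2 fold changes were -0.25 for XYLT2 (adjusted p = 0.0644) and 0.23 for XYLT1 (adjusted p = 0.0736). B3GALT6, FAM20B and B3GAT3 stood below 0 at -0.54, -0.47 and -0.43 per the authors' deposited table, with adjusted p-values of 1.20e-06, 5.94e-05 and 0.000148. B4GALT7 was at 0.46 (adjusted p = 3.43e-05) per the authors' deposited table.

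**Figure D2:**
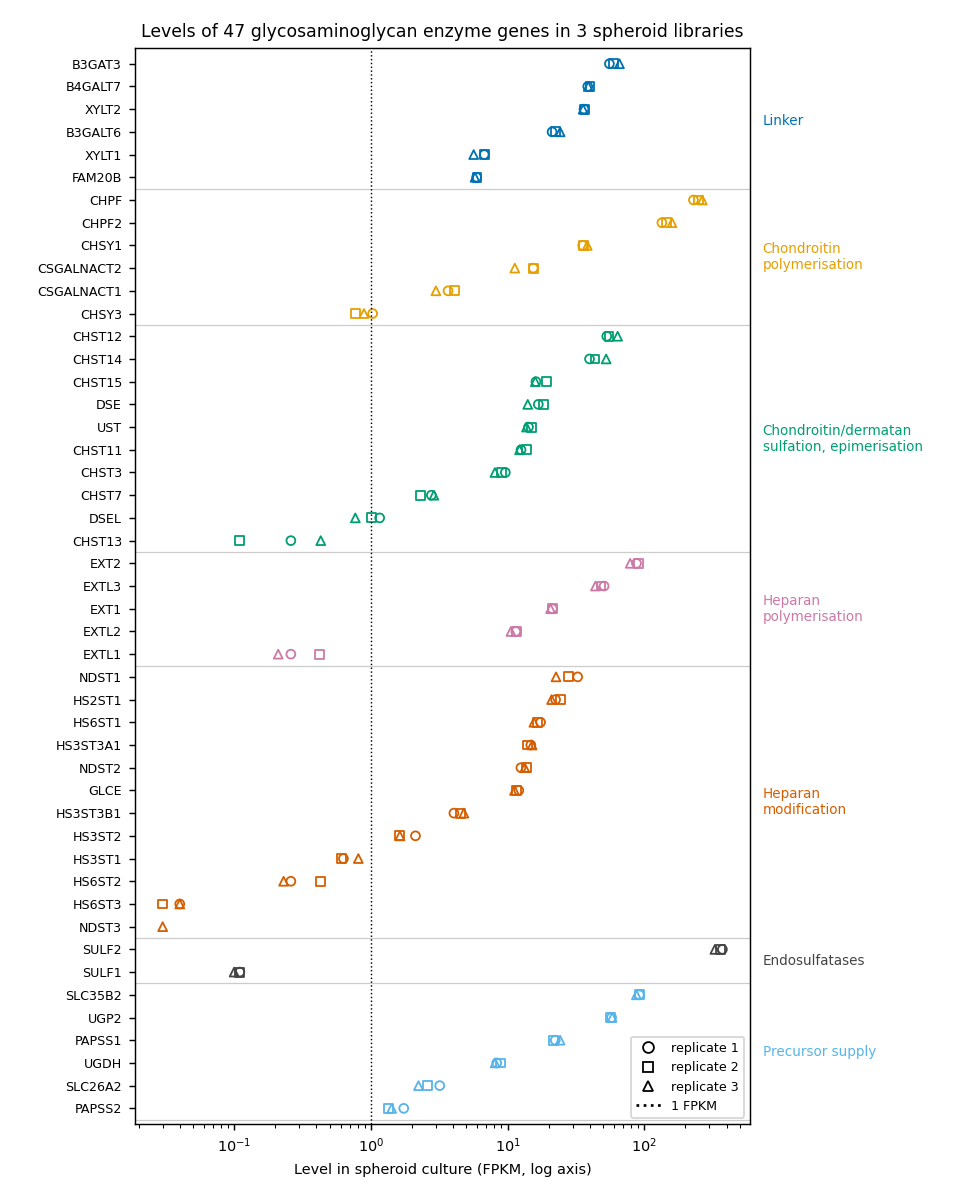
FPKM of each of the 47 genes in the 3 spheroid libraries (symbols by replicate, log axis, values of 0 not drawn), grouped by branch and ordered by mean. The dotted line marks 1 FPKM, which 38 genes reach on average, and levels run from SULF2 and CHPF at the right to NDST3 at the left.

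Genes that lengthen the chondroitin chain all had positive fold changes per the authors' deposited table, from 0.25 to 1.37 on the log2 scale, as had 9594 of the 18467 genes tested. Of the 6, 1 was called, CHSY1, beside 11.5% of all tested genes called higher. CHSY1, a chondroitin synthase that adds both sugars of the repeat, was at 35.4, 36.1 and 38.3 FPKM in replicates 1, 2 and 3. Its log2 fold change was 1.37 per the authors' deposited table, which makes it 2.59 times as high as in monolayer (adjusted p = 1.84e-41). The 3 spheroid libraries lay close together. CHPF and CHPF2, partners that form the polymerising complex with the synthases, were far more abundant, at 229, 249 and 266 FPKM for CHPF and 135, 145 and 159.5 FPKM for CHPF2. Both overlap another coding gene in RefSeq, CHPF with TMEM198 and CHPF2 with SMARCD3. CHPF was 6.77 ± 0.269 times and CHPF2 3.99 ± 0.186 times the level of CHSY1 (SD over 3 libraries). Both passed the adjusted p but not the fold minimum, with log2 fold changes of 0.62 (adjusted p = 1.63e-08) and 0.93 (adjusted p = 5.11e-26) per the authors' deposited table. CSGALNACT2 and CSGALNACT1, which place the first galactosamine and so commit the linker to chondroitin, were at 14.1 ± 2.39 and 3.58 ± 0.546 FPKM (SD, n = 3). Their log2 fold changes were 0.68 (adjusted p = 6.43e-06) and 0.56 (adjusted p = 0.00677) per the authors' deposited table. CHSY3, the other synthase, was at 0.897 ± 0.130 FPKM (SD, n = 3), and its fold change did not pass (log2 0.25, adjusted p = 0.58, the authors' deposited table). No neighbours in the order of these 6 levels overlapped over the 3 libraries.

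CHST15 had the largest fold change of the 47 genes. It encodes the sulfotransferase that adds a further sulfate to galactosamine already sulfated by the CHST11 family, giving disulfated chondroitin. CHST15 measured 16.1, 19.3 and 16.0 FPKM in replicates 1, 2 and 3, highest in replicate 2. Its log2 fold change was 4.71 per the authors' deposited table, 26.1 times the monolayer level (adjusted p = 1.35e-143). No other RefSeq gene overlaps it.

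DSE, the epimerase that turns chondroitin into dermatan by converting glucuronic to iduronic acid, also rose. It was at 16.8, 18.4 and 14.1 FPKM in replicates 1, 2 and 3, lowest in replicate 3, with a log2 fold change of 1.15 per the authors' deposited table, or 2.22 times (adjusted p = 9.63e-18). The coding gene TSPYL1 overlaps DSE in RefSeq, and no source used here says whether the counting used strand. DSEL, its relative, was at 1.16, 1.01 and 0.77 FPKM, so that DSE exceeded it 17.0 ± 2.18 times (SD over 3 libraries). DSEL passed the adjusted p in the other direction, with a log2 fold change of -0.59 per the authors' deposited table (adjusted p = 0.00361). The difference between the fold changes of DSE and DSEL was not tested.

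The remaining chondroitin and dermatan sulfotransferases were not called, so that 2 of these 10 genes rose and none fell, against 11.5% and 9.34% of all tested genes. At the adjusted p alone, 6 were higher and 1 lower, beside 26% and 24.5%. CHST12 and CHST14 led by level, at 57.4 ± 5.67 and 45.3 ± 6.59 FPKM (SD, n = 3). CHST12 acts on chondroitin and, like CHST11 and CHST13, sulfates the fourth carbon of galactosamine, whereas CHST14 sulfates the same carbon in dermatan. CHST12 was 4.48 ± 0.649 times CHST11 (SD over 3 libraries), and CHST13 was at 0.26, 0.11 and 0.43 FPKM. In the authors' deposited table, CHST14 stood at 0.48 (adjusted p = 0.00012), CHST11 at 0.58 (adjusted p = 1.65e-07) and CHST12 at 0.17 (adjusted p = 0.232). CHST13 did not pass (log2 -0.66, adjusted p = 0.481, the authors' deposited table). CHST3 and CHST7 sulfate the sixth carbon of galactosamine, a pattern typical of mature cartilage. CHST3 was at 9.63, 9.05 and 8.08 FPKM with a log2 fold change of -0.04 per the authors' deposited table (adjusted p = 0.841), and CHST7 at 2.77, 2.32 and 2.89 FPKM with 0.71 (adjusted p = 0.00975). UST, which sulfates the uronic acid of both chains, was at 14.3 ± 0.583 FPKM (SD, n = 3) and stood just short of the fold minimum at 0.86 per the authors' deposited table (adjusted p = 6.14e-14). By level, CHST15, DSE, UST and CHST11 overlapped with their neighbours over the 3 libraries.

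Of the 5 heparan polymerisation genes 0 were called (at an unadjusted p under 0.05 in the authors' DESeq2 comparison, 2 were higher and 3 lower), beside the same 11.5% and 9.34% of all tested genes. EXT1 and EXT2 encode the paired polymerase of heparan sulfate, and EXT2 was 4.06 ± 0.211 times as abundant as EXT1 (SD over 3 libraries). EXT2 was at 87.7, 90.1 and 78.8 FPKM and EXT1 at 21.3, 21.3 and 20.6 FPKM in replicates 1, 2 and 3. Their log2 fold changes had opposite signs per the authors' deposited table, 0.32 for EXT2 (adjusted p = 0.00151) and -0.24 for EXT1 (adjusted p = 0.00733), and both were small. EXTL3, which adds the first glucosamine and so commits the linker to heparan, was at 47.7 ± 3.48 FPKM (SD, n = 3) and stood at 0.89 per the authors' deposited table (adjusted p = 1.08e-18). EXTL2, a transferase that can stop chain growth at a phosphorylated linker, was at 11.2 ± 0.570 FPKM (SD, n = 3) and at -0.36 on the log2 scale per the authors' deposited table (adjusted p = 0.0061). EXTL1 was listed at 0.26, 0.42 and 0.21 FPKM and did not pass (log2 -0.90, adjusted p = 0.0697, the authors' deposited table).

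In heparan modification, the branch with the most genes, 4 of 12 were higher and none lower, beside 11.5% and 9.34% of all tested genes, and 2 of the 4 were below 1 FPKM. At the adjusted p alone 5 were higher and 2 lower, beside 26% and 24.5%. HS2ST1, the sole sulfotransferase of the uronic acid in heparan sulfate, was the most abundant of the 4, at 22.5, 24.4 and 21.0 FPKM in replicates 1, 2 and 3. Its log2 fold change of 1.95 per the authors' deposited table is 3.87 times the monolayer level (adjusted p = 4.85e-65). HS3ST3B1, of the family that adds the rare sulfate on the third carbon of glucosamine, was at 4.05, 4.55 and 4.79 FPKM and at 1.04 on the log2 scale per the authors' deposited table, or 2.05 times (adjusted p = 2.10e-11). When fold changes were centred on the median of all genes, HS3ST3B1 no longer reached the minimum of 1. HS6ST2 and HS3ST1 were called although their levels in spheroids, the higher side, were below 1 FPKM. HS6ST2, which sulfates the sixth carbon of glucosamine, was at 0.26, 0.43 and 0.23 FPKM, with a log2 fold change of 3.17 per the authors' deposited table (adjusted p = 0.000608). HS3ST1, the enzyme that completes the antithrombin binding site of heparin, was at 0.63, 0.61 and 0.81 FPKM, with a log2 fold change of 1.23 per the authors' deposited table (adjusted p = 7.90e-05).

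HS3ST3A1 and HS3ST3B1, close paralogs on chromosome 17 whose enzymes make the same kind of site, had fold changes of opposite sign. HS3ST3A1 was at 14.8, 13.9 and 15.1 FPKM, 3.29 ± 0.321 times HS3ST3B1 (SD over 3 libraries), and stood at -0.39 on the log2 scale per the authors' deposited table (adjusted p = 0.00014). The 3 libraries of one gene lay clear of those of the other. The difference between their fold changes was not tested, and reads shared by the 2 copies cannot be seen in FPKM, so both values are uncertain.

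Other heparan modifying genes were not called. NDST1 and NDST2, which replace acetyl by sulfate on glucosamine and so open the chain to the later enzymes, were at 32.6, 28.1 and 22.6 FPKM and 12.5, 13.7 and 13.4 FPKM. NDST1 was highest in replicate 1 and lowest in replicate 3, and its ratio to NDST2 ran from 2.60 in replicate 1 to 1.69 in replicate 3. Their log2 fold changes were -0.28 (adjusted p = 0.0332) and 0.66 (adjusted p = 2.40e-07) per the authors' deposited table. NDST3 was listed at 0 in replicates 1 and 2 and at 0.03 FPKM in replicate 3. GLCE, the epimerase of heparan sulfate, was at 11.7 ± 0.425 FPKM (SD, n = 3; log2 0.22, adjusted p = 0.0856, the authors' deposited table). HS6ST1, the main member of its family here, was at 16.5 ± 0.925 FPKM (SD, n = 3), and its log2 fold change was -0.02 per the authors' deposited table (adjusted p = 0.917). HS6ST3 was at 0.04, 0.03 and 0.04 FPKM, and HS3ST2 at 2.12, 1.63 and 1.63 FPKM. Neither passed, with log2 fold changes of -0.26 (adjusted p = 0.854) and 0.17 (adjusted p = 0.676) per the authors' deposited table, and NDST3 did not pass either (adjusted p = 0.36).

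**Figure D3:**
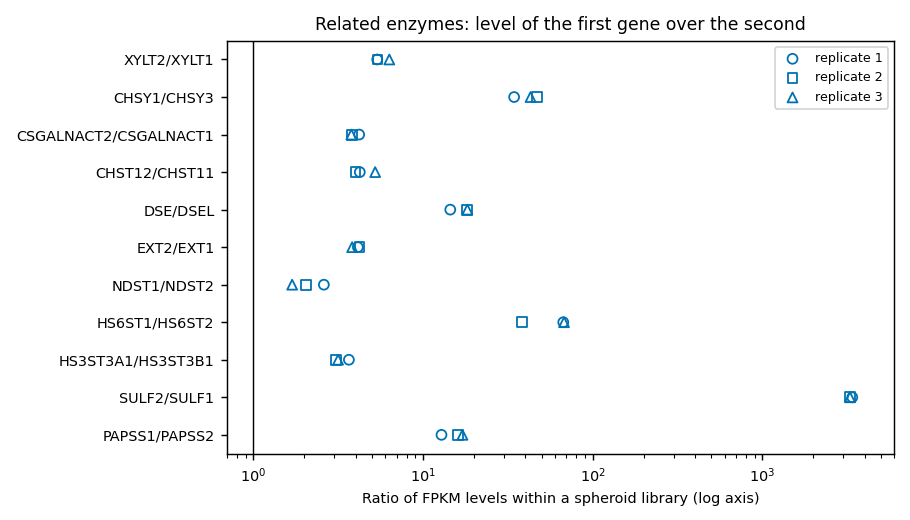
Ratio of FPKM levels of related enzymes within each spheroid library (symbols by replicate, log axis; the line marks equal levels). Every pair drawn has the same member in excess in the 3 libraries, and SULF2 over SULF1 lies farthest to the right.

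SULF2 was the most abundant of the 47 transcripts. SULF2 and SULF1 encode extracellular enzymes that remove sulfate from the sixth carbon of glucosamine in finished heparan sulfate, and so change its binding of growth factors. SULF2 was at 373, 362 and 329 FPKM in replicates 1, 2 and 3, rank 238 of the 19215 genes, and made up 22.0% ± 1.47 of the summed FPKM of the 47 (SD, n = 3). Its log2 fold change was 1.62 per the authors' deposited table, 3.08 times the monolayer level (adjusted p = 5.29e-60). SULF1 was at 0.11, 0.11 and 0.10 FPKM, so that SULF2 exceeded it 3322 ± 57.4 times (SD over 3 libraries). That SD leaves out the rounding of FPKM to 2 decimals, which is coarse at 0.10 FPKM, so the ratio is only approximate. SULF1 stood at 2.63 on the log2 scale per the authors' deposited table and just missed the threshold (adjusted p = 0.0505). Thus 1 of the 2 endosulfatase genes was called higher, beside 11.5% of all tested genes.

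SLC26A2 was the member that fell. It encodes the sulfate transporter of the cell membrane, whose loss in humans causes chondrodysplasias with undersulfated cartilage. SLC26A2 was at 3.19, 2.59 and 2.23 FPKM in replicates 1, 2 and 3, highest in replicate 1, and had the largest coefficient of variation of the 38 genes at 1 FPKM or more, 18.2%. Its log2 fold change was -1.26 per the authors' deposited table, so that monolayers held 2.40 times as much (adjusted p = 4.21e-19).

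The other precursor genes were not called, so that 1 of the 6 was lower, beside 9.34% of all tested genes. At the adjusted p alone 2 were higher and 2 lower, beside 26% and 24.5%. The median log2 fold change of the 6 was -0.09 per the authors' deposited table. PAPSS1 and PAPSS2 make PAPS, the donor of all these sulfates, and PAPSS1 was between 12.8 and 17.1 times as abundant as PAPSS2 over the 3 libraries. PAPSS1 was at 22.3, 21.7 and 24.2 FPKM and PAPSS2, the form linked to skeletal dysplasia, at 1.74, 1.35 and 1.42 FPKM in replicates 1, 2 and 3. Their log2 fold changes were 0.09 (adjusted p = 0.521) and -0.58 (adjusted p = 0.0155) per the authors' deposited table. SLC35B2, which carries PAPS into the Golgi, was at 90.6 ± 2.65 FPKM (SD, n = 3), 34.6 ± 5.30 times SLC26A2 (SD over 3 libraries). UGP2 makes UDP-glucose and UGDH oxidises it to UDP-glucuronic acid, and the first exceeded the second 6.84 ± 0.381 times (SD over 3 libraries). Log2 fold changes per the authors' deposited table were 0.33 for SLC35B2 (adjusted p = 0.002), 0.39 for UGP2 (adjusted p = 0.00229) and -0.27 for UGDH (adjusted p = 0.0567).

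Across branches, the summed level of chondroitin polymerisation genes was the highest, at 449 ± 29.8 FPKM, followed by the endosulfatases at 355 ± 23.0 FPKM (SD, n = 3). The first sum came mostly from CHPF and CHPF2, at means of 248 and 146 FPKM, and the second almost wholly from SULF2, at 354 FPKM. Precursor supply summed to 183 ± 1.75, chondroitin sulfation to 176 ± 9.16, the linker to 171 ± 5.97, heparan polymerisation to 166 ± 10.1 and heparan modification to 114 ± 6.46 FPKM (SD, n = 3). Neighbouring sums from precursor supply down to heparan polymerisation overlapped over the 3 libraries, and heparan modification lay below them in every library. In the authors' deposited table, 11 of the 16 chondroitin genes and 8 of the 19 heparan genes, endosulfatases included, passed the adjusted p upward, and 1 and 4 passed it downward, beside 26% and 24.5% of all tested genes. Called genes numbered 3 of 16 and 5 of 19, all higher, beside 11.5% called higher and 9.34% lower among all. The median log2 fold changes were 0.60 and 0.22 per the authors' deposited table, and the difference between the branches was not tested.

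Between the spheroid libraries, the coefficient of variation had a median of 7.13% over the 38 members at 1 FPKM or more and 8.37% over the 12410 genes at that level. XYLT2, UGP2 and FAM20B varied least, at 1.08%, 1.34% and 1.73%, and SLC26A2, NDST1 and CSGALNACT2 most, at 18.2%, 18.0% and 17.0%. Replicate 3 was the lowest library for 22 of the 38 and the highest for 12. On log2(FPKM + 1), a library's median difference from the 3-library average was 0.01, 0.02 and -0.05 in replicates 1, 2 and 3 over the 38 genes. Over the 12410 genes at that level it was 0.005, -0.007 and 0.006. The 12 members highest in replicate 3 were CHPF, CHPF2, CHSY1, CHST7, CHST12, CHST14, B3GAT3, B3GALT6, HS3ST3A1, HS3ST3B1, PAPSS1 and UGP2. All 4 heparan polymerisation genes at that level were lowest there.

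**Figure D4:**
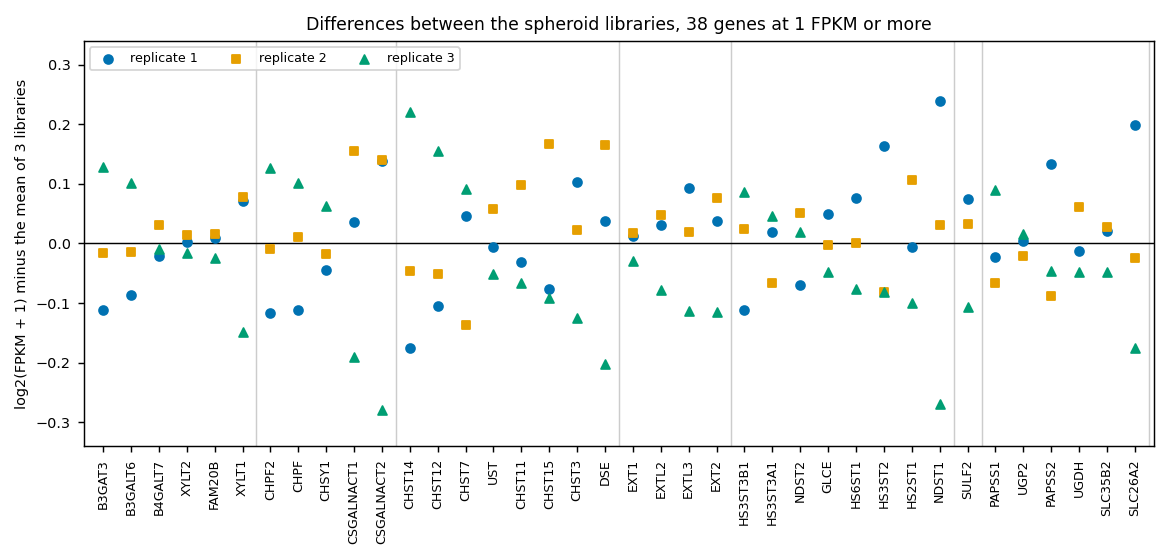
Each library's log2(FPKM + 1) minus the average of all 3 for the 38 genes at 1 FPKM or more (symbols by replicate), grouped by branch in the order linker, chondroitin polymerisation, chondroitin sulfation, heparan polymerisation, heparan modification, endosulfatase and precursor supply. Replicate 3 is the lowest for 22 genes, with CSGALNACT2 and NDST1 the farthest below 0.

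Related genes outside the 47 were described by list. Among 9 keratan sulfate genes, whose chain is the third sulfated glycosaminoglycan of cartilage, 5 were higher, 1 lower and 3 not called, beside 11.5% and 9.34% of all tested genes, with a median log2 fold change of 1.04 per the authors' deposited table. B4GALT1, a galactosyltransferase that also serves other glycans, was at 116 ± 5.07 FPKM (SD, n = 3) and stood at 1.43 per the authors' deposited table. The galactose sulfotransferase gene CHST1 was at 7.98 ± 1.07 FPKM (SD, n = 3) and stood at 1.15, against -2.99 for CHST4, a glucosamine sulfotransferase at 0.587 ± 0.105 FPKM, per the authors' deposited table. B3GNT2, B3GNT7 and CHST2 were the others called higher, at 1.21, 1.38 and 1.04 per the authors' deposited table. With fold changes centred on the median of all genes, 4 of the 5 higher calls were left. At 1 FPKM or more 4 were higher and none lower, beside 12.7% and 9.83% of all genes at that level.

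Of 22 further synthesis and supply genes, 2 were higher, 2 lower and 18 not called, shares of 9.09% each way beside 11.5% and 9.34% of all tested genes, and their median log2 fold change was -0.02 per the authors' deposited table. The called genes of the hexosamine pathway went opposite ways. GFPT2, which makes glucosamine phosphate, was at 16.7, 21.1 and 22.8 FPKM and stood at 2.70 per the authors' deposited table, while UAP1, which makes UDP-N-acetylglucosamine, was at 26.1, 21.2 and 20.0 FPKM and stood at -1.20. TMEM165, a Golgi manganese and calcium transporter, led the list by level at 83.5 ± 6.14 FPKM (SD, n = 3), with a log2 fold change of 0.54 per the authors' deposited table (adjusted p = 1.23e-07). HS3ST4 and HS3ST5, called at 3.71 and -2.83 per the authors' deposited table, were at 0.217 ± 0.0351 and 0.0333 ± 0.0208 FPKM (SD, n = 3). UXS1, which makes UDP-xylose for the linker, was at 60.6 ± 3.94 FPKM (SD, n = 3) and not called (0.84, the authors' deposited table).

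Of 18 genes that degrade the chains, 4 were higher, none lower and 14 not called, beside 11.5% and 9.34% of all tested genes, with a median log2 fold change of 0.72 per the authors' deposited table. At the adjusted p alone 12 were higher and 1 lower, beside 26% and 24.5%, and with fold changes centred on the median of all genes 2 of the 4 calls were left. IDS, a lysosomal sulfatase that acts on heparan and dermatan sulfate, stood at 1.01 per the authors' deposited table, and HEXA, a hexosaminidase subunit, at 1.03. HPSE2, a heparanase relative without known chain-cutting activity, stood at 4.03 per the authors' deposited table. Its level in spheroids, the higher side, was 0.973 ± 0.0153 FPKM (SD, n = 3).

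Of 10 tested core proteins that carry chondroitin or dermatan chains, 4 were higher and 1 lower, beside 11.5% and 9.34% of all tested genes. BGN and SRGN, encoding biglycan and serglycin, were at 67.0 ± 4.23 and 162 ± 12.3 FPKM (SD, n = 3), with log2 fold changes of 1.42 and 1.26 per the authors' deposited table. NCAN and DCN, encoding neurocan and decorin, stood at 5.69 and 4.36 per the authors' deposited table, or 51.4 and 20.6 times the monolayer level. Their levels in spheroids, the higher side, were only 2.87 ± 0.211 and 1.48 ± 0.130 FPKM (SD, n = 3). ACAN, encoding aggrecan, was the one called lower, at 0.77, 0.73 and 0.69 FPKM and -2.16 on the log2 scale per the authors' deposited table. Of 13 heparan carriers, 4 were higher and 4 lower, beside the same shares. The syndecan genes split, with SDC4 at 1.86 and SDC2 at 1.54 but SDC1 at -1.13 per the authors' deposited table. The glypican genes split as well, with GPC6 at 3.23 and GPC3 at 3.53 but GPC2 at -1.08 per the authors' deposited table. The GPC3 call came from 0.30, 0.40 and 0.19 FPKM in replicates 1, 2 and 3, with an adjusted p of 0.015 in the authors' DESeq2 comparison. GPC1, the most abundant glypican on this list at 106 ± 6.36 FPKM (SD, n = 3), missed the fold minimum (log2 -0.92, adjusted p = 6.81e-21, the authors' deposited table). HSPG2 and COL18A1, the basement membrane carriers perlecan and collagen XVIII, stood at -1.28 and -1.09 per the authors' deposited table. AGRN, encoding agrin, was the most abundant carrier on this list at 262 ± 12.4 FPKM (SD, n = 3), with a log2 fold change of 0.39 per the authors' deposited table (adjusted p = 0.000572).

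**Figure D5:**
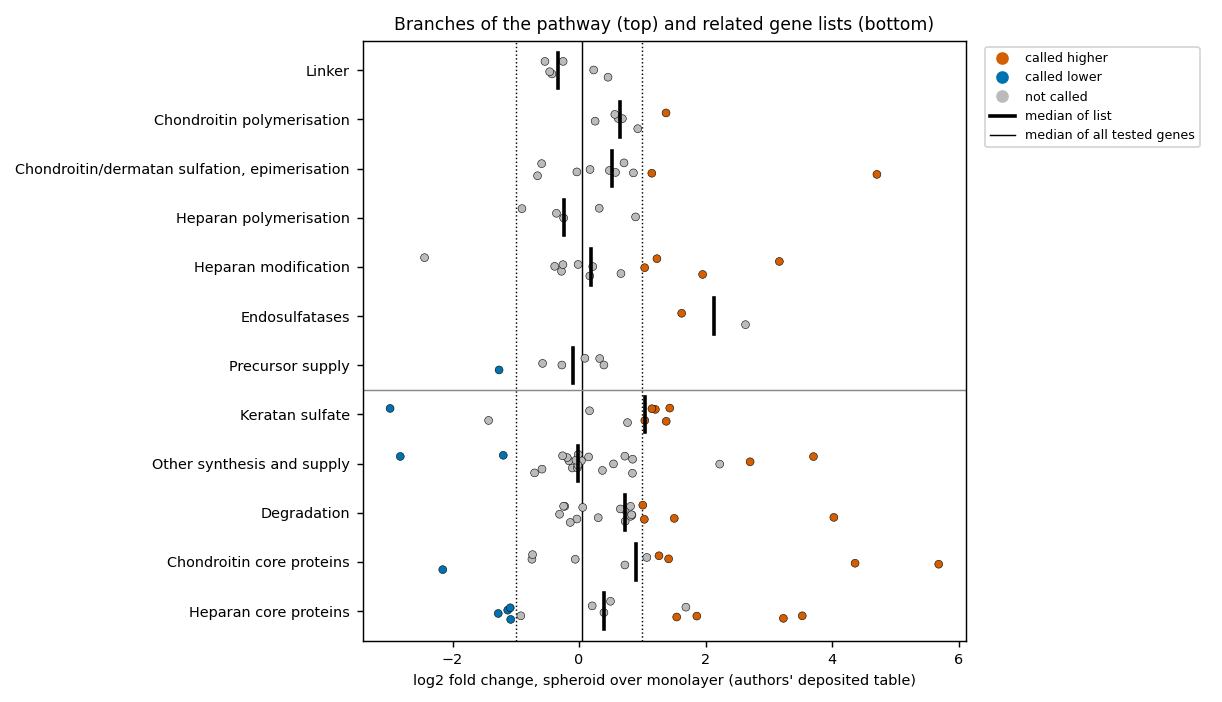
Log2 fold changes in the authors' deposited table for the 7 branches of the 47 genes (above the line) and 5 lists of related genes (below it), 1 point per gene with vertical scatter for legibility; thick bars are list medians, the thin line the median of all tested genes (0.04) and dotted lines -1 and 1. Keratan sulfate genes have a median of 1.04 and linker genes one of -0.34.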

How the data were processed

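RNA sequencing covered 3 spheroid samples, grouped and numbered from the labels. The submitters' processing notes name Bowtie2 2.2.5, RSEM 1.2.12, DESeq2 1.4.5 and GRCh38.p13, without saying which step each served. Values are FPKM to 2 decimals, as the authors deposited them. The log2 fold change, p-value and q-value (adjusted p) come from the authors' DESeq2 comparison of monolayer and spheroid cultures, per the file headers. The sign (positive for spheroids) was checked on 358 genes listed at 0 in every spheroid library, of which 356 had a negative fold change. The 3 columns of single monolayer libraries match no listed sample and were used in no step, so the comparison was not refitted. Read totals cannot be had from FPKM, so the depth is unknown, and neither interval nor floor was computed.

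The 47 members, their branches and the related lists were chosen with earlier results of these data known. All members were named; of a related list, those called and up to 4 of the most abundant others; and the 3 members that varied most and least. Some genes of the related lists are not reported here. Means and SDs are over the 3 libraries. Calls need an adjusted p under 0.05 and a log2 fold change of 1 or more in size, and list shares are descriptions without a set test. Counting and scaling steps were tested on simulated data. No source used here gives the strandedness, and 26 of the 47 genes overlap another RefSeq gene, 4 of them a coding one. Promoters are RefSeq windows on GRCh38.p14. Alternatives were an adjusted p under 0.01, no fold minimum, a minimum of 2, at least 1 FPKM, centred fold changes, median-ratio scaling, a pseudocount of 0.1 instead of 1, and omission of each replicate. Tools were Python 3.11.15, NumPy 2.4.6, pandas 2.3.3 and matplotlib 3.10.9.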

Additional observations from a re-analysis of the deposited data

How the results depend on the processing

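Counts depended mainly on the fold minimum. With none, 22 members were higher and 10 lower, beside 26% and 24.5% of all tested genes. Of the 98 entries of the related lists, 56 were then called in place of 32. The rule that gave 32 called 11.5% of all tested genes higher and 9.34% lower. With a minimum of 2 on the log2 scale, 2 members were higher (CHST15 and HS6ST2) and 0 lower in the authors' DESeq2 comparison (0 at an unadjusted p under 0.05). Of all tested genes, 5.05% were higher and 3.06% lower in that setting. There, 2 of 7 branches in place of 5 held a called gene, and 14 of the 98 entries of the related lists were called. At 1 FPKM or more, 6 members were higher, 1 was lower and 20 such entries were called. Among all genes at that level, 12.7% were higher and 9.83% lower. ACAN is on 2 of these lists and counts as 2 entries. Centring on the median of all genes removed 1 member's call, HS3ST3B1, and left 29 of the 32 related entries called, and an adjusted p under 0.01 removed none of the 9. A reversed call was not possible in these settings, since they reuse the authors' fold changes and centring shifts each by only 0.04. Leaving out each replicate gave 38 to 39 members at 1 FPKM or more, and changed a mean at that level by at most 1.11 times, for SLC26A2 without replicate 1. The authors' fold changes could not be refitted without a replicate. No paired analysis was possible because only 1 labelled group has samples.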
